A study of Rattus norvegicus with 10 samples.

Results

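Aqp1, Aqp3 and Aqp4, which encode water channels of the kidney tubule, were followed in the whole kidney of the rat. The animals were males of the outbred Sprague-Dawley stock. The 3 genes were taken from the 32623 genes of the count table by their Ensembl identifiers, each with a check of its chromosome. All 3 were abundant enough to be among the 15047 tested genes. Control rats (5 animals) drank water freely, and dehydrated rats (5 animals) had none for 72 hours. No other treatment separates the groups in the labels, and no age is given for the rats. Each library holds polyadenylated RNA of ground whole kidney from 1 rat, so cortex and medulla were measured together.

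Aquaporins form pores through which water crosses cell membranes along an osmotic gradient. Aqp1 is known as the channel of the proximal tubule and the thin descending limb of the loop of Henle, where it sits in both the luminal and the basolateral membrane, and it is also made in endothelium of the vasa recta and in red cells. Aqp3 and Aqp4 are known from the basolateral membrane of the principal cells of the collecting duct, where they let water leave the cell that entered through the vasopressin-controlled luminal channel Aqp2. Aqp3 also carries glycerol, while Aqp4 is a strict water channel, best known from the end feet of brain astrocytes. Concentration of the urine during water deprivation depends on the water permeability of these segments.

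Aqp1 and Aqp3 transcripts rose in the dehydrated kidneys by 1.21-fold and 1.33-fold, and for both genes each of the 5 dehydrated kidneys lay above each of the 5 control kidneys. Aqp4 had a mean difference of 1.23-fold, but its groups overlapped and it did not pass the test. A gene was called at a Benjamini-Hochberg adjusted p below 0.05 in edgeR's quasi-likelihood test over the whole table, which held for 8.47% of all tested genes, 4.70% being higher after water deprivation. All dehydrated kidneys were above all controls for 4.39% of tested genes. The 3 genes differed far more in level than the treatments did, with Aqp1 highest and Aqp4 lowest per length in every kidney. Whole-kidney RNA cannot tell more transcript per cell from more cells of a type, which holds for each difference below.

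The libraries held 29454213 to 35898689 assigned fragments, so even the least abundant of the 3 genes was counted at least 899 times in each. Groups follow the titles and treatment labels, although the names given to the 2 libraries numbered 6 contain each other's group letter. Marker genes of the kidney's cell types were not examined, because the identifiers could not be paired with symbols. The share of each cell type in a library was therefore not tested.

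The bases before the transcript starts are shown because Aqp1 and Aqp3 both rose, and those of Aqp4, whose response was not shown to differ from theirs, are given beside them. Each window is the 250 bases before an annotated start, 5′ to 3′ on the gene's strand, from RefSeq on assembly GRCr8, whose coordinates differ from those of the counts. Capitals mark TATAAA, the core of the TATA box, and TGGAAA with its complement TTTCCA, the core of the element bound by the tonicity-responsive factor NFAT5.
Aqp1 (chr4:85812534-85812783, plus strand): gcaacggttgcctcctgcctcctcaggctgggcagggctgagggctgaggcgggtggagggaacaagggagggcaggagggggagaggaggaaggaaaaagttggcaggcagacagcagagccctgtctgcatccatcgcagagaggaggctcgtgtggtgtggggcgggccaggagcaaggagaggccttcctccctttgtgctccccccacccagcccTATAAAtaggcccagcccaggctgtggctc
Aqp3 (chr5:61040684-61040933, minus strand): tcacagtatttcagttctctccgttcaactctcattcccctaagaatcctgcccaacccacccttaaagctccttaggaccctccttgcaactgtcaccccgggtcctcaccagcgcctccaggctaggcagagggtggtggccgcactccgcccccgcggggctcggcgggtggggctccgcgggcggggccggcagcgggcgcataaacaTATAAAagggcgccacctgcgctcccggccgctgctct
Aqp4, upstream start (chr18:6798843-6799092, minus strand): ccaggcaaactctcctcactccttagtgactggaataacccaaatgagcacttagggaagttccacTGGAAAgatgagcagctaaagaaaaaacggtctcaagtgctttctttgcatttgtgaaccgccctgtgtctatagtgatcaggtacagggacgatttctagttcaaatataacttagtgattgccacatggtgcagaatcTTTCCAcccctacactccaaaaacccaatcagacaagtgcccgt
Aqp4, downstream start (chr18:6797927-6798176, minus strand): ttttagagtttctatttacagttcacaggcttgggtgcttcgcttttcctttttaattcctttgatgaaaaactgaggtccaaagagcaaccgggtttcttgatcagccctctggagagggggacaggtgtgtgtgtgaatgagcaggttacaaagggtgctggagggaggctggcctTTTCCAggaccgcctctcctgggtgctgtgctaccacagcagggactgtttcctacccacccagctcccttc

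The windows of Aqp1 and Aqp3 each held TATAAA on the gene's strand, beginning 30 bases before the start in Aqp1 and 38 in Aqp3. Neither Aqp4 window held it. On either strand TATAAA occurred in 12.9% of all 33469 windows of that length. TGGAAA occurred on the gene's strand 184 bases before the upstream Aqp4 start and on the opposite strand 44 bases before it, and on the opposite strand 72 bases before the downstream start. It was found in neither the Aqp1 nor the Aqp3 window, and in 19.7% of all windows. The cAMP response element TGACGTCA (1.59% of all windows) and its shorter form TGACG (18.2%), whose letters it contains, were found in none of the 4 windows. The Aqp1 and Aqp3 windows each held 65.2% G and C, and the Aqp4 windows 44.8% and 51.6%, against a median of 51.2%. These matches describe letters and were not tested as binding sites.

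Abundance is given as CPM, the count per 1000000 fragments of tested genes after TMM scaling, and levels were compared between genes as FPKM, the CPM divided by the exonic length in kilobases. Aqp1 had 986 ± 64.0 FPKM in control kidneys (SD, n = 5) and 1197 ± 96.5 FPKM after water deprivation (SD, n = 5). Aqp3 had 100 ± 18 FPKM in control kidneys (SD, n = 5) and 133 ± 5.91 FPKM after deprivation (SD, n = 5). Aqp4 had 10.3 ± 2.91 FPKM in control kidneys (SD, n = 5) and 12.8 ± 2.75 FPKM after deprivation (SD, n = 5). The order Aqp1, Aqp3, Aqp4 held in all 10 kidneys without overlap, since the lowest Aqp1 value was 895 FPKM against a highest Aqp3 value of 139, and the lowest Aqp3 value was 79.9 against a highest Aqp4 value of 16.5. Of the summed FPKM of the 3 genes, Aqp1 made up 90.0% ± 1.55 in the controls and 89.1% ± 0.514 in the deprived rats (SD, n = 5 each). By mean FPKM, Aqp1 ranked 41, Aqp3 897 and Aqp4 6508 among the 15047 tested genes. These levels rest on the exonic length of each Ensembl gene model, 2900 bp for Aqp1, 1793 bp for Aqp3 and 5419 bp for Aqp4, which pools the exons of all its transcripts.

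**Figure D1:**
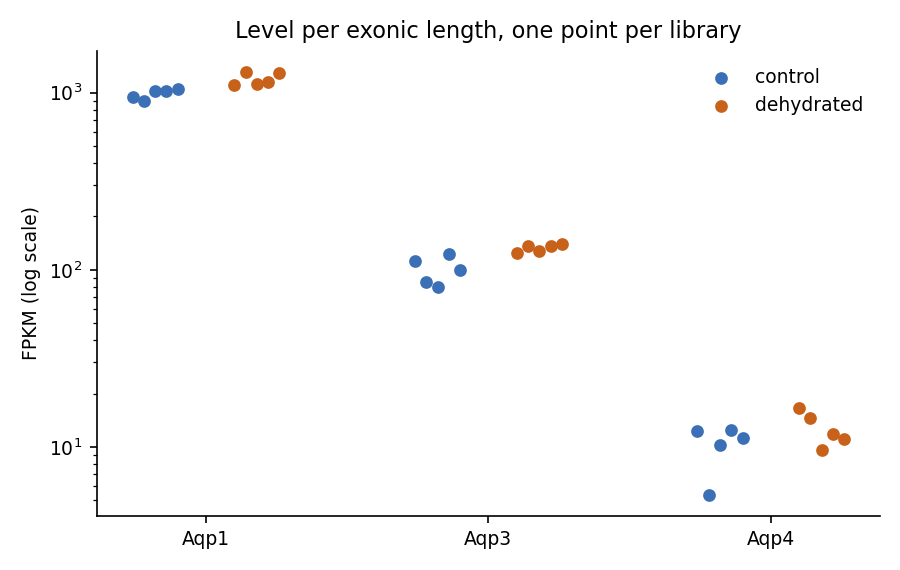
Level of each aquaporin per exonic length in FPKM (vertical axis, log scale), with 1 point per kidney library for 5 control (blue) and 5 dehydrated (orange) rats. Aqp1 lies between 895 and 1309 FPKM, Aqp3 between 79.9 and 139 and Aqp4 between 5.39 and 16.5, so the genes do not overlap.

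Aqp1 (ENSRNOG00000011648) lies on the plus strand of chromosome 4, from 85551502 to 85569360 in Rnor_6.0, with 7 annotated exon intervals that merge into 5 blocks. Its longest block holds 66.7% of its exonic length. No other annotated gene overlaps its span. In control kidneys Aqp1 was measured at 2738 CPM (replicate 2), 2594 (replicate 3), 2946 (replicate 4), 2978 (replicate 5) and 3035 (replicate 6). In dehydrated kidneys it was measured at 3212 CPM (replicate 1), 3797 (replicate 2), 3263 (replicate 4), 3336 (replicate 5) and 3750 (replicate 6). The lowest dehydrated kidney was above the highest control kidney, and within the dehydrated group replicates 2 and 6 stood above the other 3.

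The mean of Aqp1 rose from 2858 ± 185 CPM to 3472 ± 280 CPM (SD, n = 5). On the log2 scale this was 0.28 with an SE of 0.07 (edgeR adjusted p = 0.0296). Its 95% interval was 0.12 to 0.44 on the log2 scale, or 1.09-fold to 1.35-fold. The change was small beside those of other genes that rose: 618th by fold of 707 called higher, with a median of 1.39-fold among them. Aqp1 ranked 16 of all tested genes by mean CPM. Its gain of 614 CPM was the 3rd largest among the genes called higher. Among the 89 genes averaging 1000 CPM or more, Aqp1 was 1 of the 4 (4.49%) called higher, a share near the 4.70% of all tested genes.

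The Aqp1 call in edgeR was close to the threshold and depended on which kidneys were included. It was lost without control replicate 2 (adjusted p = 0.0703), control replicate 3 (0.0687), dehydrated replicate 2 (0.0806) or dehydrated replicate 6 (0.0613) in edgeR, while the log2 fold change stayed between 0.25 and 0.31 over all 10 fits that leave out 1 library. Without both libraries numbered 6 it was 0.27 (edgeR adjusted p = 0.069). With these 2 exchanged between the groups, as their library names would have it, it was 0.15 (edgeR adjusted p = 0.588). The groups by title stood apart, so the exchange had to make them overlap and shrink the difference. It does not show which labels are right. In the authors' deposited table the log2 fold change of Aqp1 is 0.28 with an adjusted p of 0.00105. The Wald test of DESeq2 on these 10 libraries, grouped by title, gave 0.28 with an adjusted p of 9.0e-04. The deposited fold change is thus that of the groups by title, not the 0.15 of the exchange.

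Aqp3 (ENSRNOG00000009797) lies on the minus strand of chromosome 5, from 57423734 to 57429245 in Rnor_6.0, with 6 exon intervals and no other annotated gene overlapping its span. In control kidneys Aqp3 was measured at 200 CPM (replicate 2), 154 (replicate 3), 143 (replicate 4), 221 (replicate 5) and 178 (replicate 6). In dehydrated kidneys it was measured at 224 CPM (replicate 1), 244 (replicate 2), 230 (replicate 4), 244 (replicate 5) and 248 (replicate 6). The dehydrated kidneys formed a narrow band just above the highest control kidney, whereas the controls were spread widely beneath it. The coefficient of variation was 18% in the controls and 4.45% in the dehydrated kidneys, a difference in spread that was not tested.

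The mean of Aqp3 rose from 179 ± 32.2 CPM to 238 ± 10.6 CPM (SD, n = 5). On the log2 scale this was 0.41 with an SE of 0.10 (edgeR adjusted p = 0.0236). The 95% interval was 0.19 to 0.63 on the log2 scale, or 1.14-fold to 1.54-fold. Among the 707 genes called higher, 274 (38.8%) had a smaller log2 fold change, which places Aqp3 in the lower part of that set. The call was lost in edgeR without control replicate 3 (adjusted p = 0.0565), dehydrated replicate 2 (0.0545) or dehydrated replicate 6 (0.0529), with log2 fold changes of 0.34 to 0.49 over the 10 fits that leave out 1 library. Without both libraries numbered 6 it was 0.39 (edgeR adjusted p = 0.0953). With them exchanged it was 0.21 (edgeR adjusted p = 0.601), where again the groups had to overlap and the difference to shrink. The authors' deposited table gives Aqp3 a log2 fold change of 0.41 with an adjusted p of 0.00201. Of the genes with an adjusted p in the authors' deposited table, 6.25% are higher at an adjusted p below 0.05, Aqp1 and Aqp3 among them.

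Aqp4 (ENSRNOG00000016043) lies on the minus strand of chromosome 18, from 6765945 to 6782996 in Rnor_6.0, with 9 annotated exon intervals that merge into 6 blocks. The longest block takes 79.6% of the exonic length, and no other annotated gene overlaps the span. In control kidneys Aqp4 was measured at 66.8 CPM (replicate 2), 29.2 (replicate 3), 56.0 (replicate 4), 67.7 (replicate 5) and 60.7 (replicate 6). In dehydrated kidneys it was measured at 89.6 CPM (replicate 1), 78.8 (replicate 2), 52.4 (replicate 4), 64.8 (replicate 5) and 60.4 (replicate 6). Control replicate 3 lay far below the other controls, and only dehydrated replicates 1 and 2 lay above the highest control. The gap from control replicate 3 to the next control was 0.695 of the control range, short of the critical value of 0.71 in Dixon's test.

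Mean Aqp4 was 56.1 ± 15.8 CPM in the controls (SD, n = 5) and 69.2 ± 14.9 CPM in the deprived rats (SD, n = 5). The log2 difference was 0.30 (SE 0.20, edgeR adjusted p = 0.425), with a 95% interval of -0.12 to 0.73, or 0.919-fold to 1.66-fold. The interval includes no change as well as a rise as large as that of Aqp1 or Aqp3. Over the 10 fits that leave out 1 library it was between 0.14 (without control replicate 3, the lowest control) and 0.39 (without dehydrated replicate 4, the lowest of its group), with edgeR adjusted p of 0.306 to 0.655. The authors' deposited table gives Aqp4 a log2 fold change of 0.30 with an adjusted p of 0.543.

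**Figure D2:**
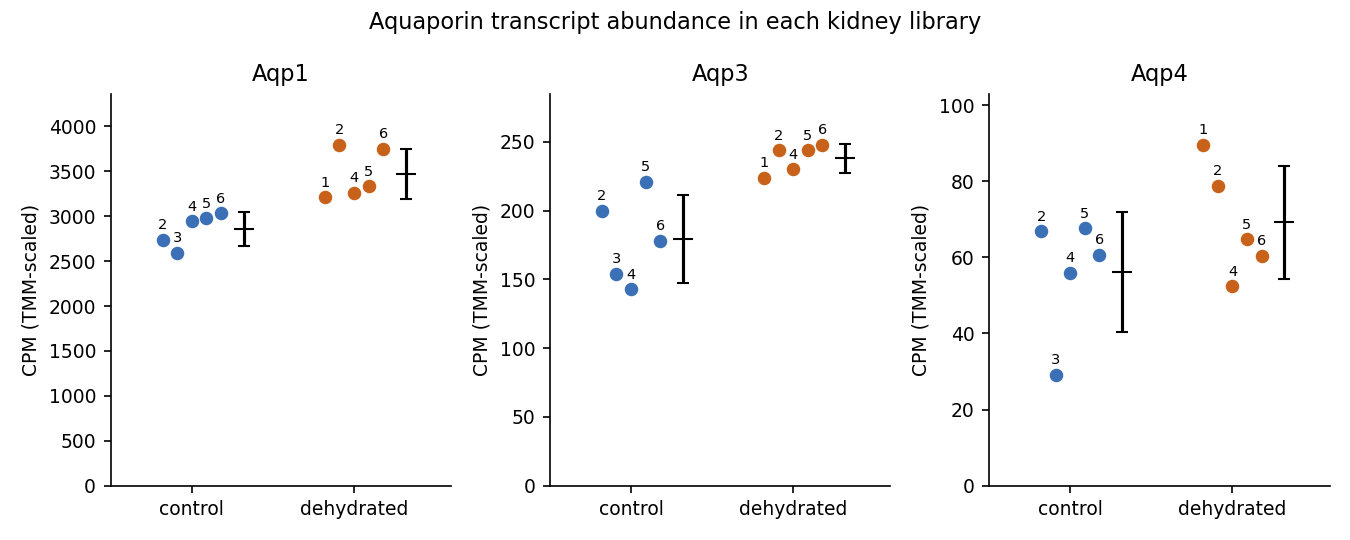
CPM (TMM-scaled, vertical axes from 0) of Aqp1, Aqp3 and Aqp4 in each kidney library, 5 control (blue) and 5 dehydrated (orange), with replicate numbers beside the points and the mean ± SD in black. The groups are apart for Aqp1 and Aqp3 and overlap for Aqp4, where control replicate 3 is lowest at 29.2 CPM and dehydrated replicate 1 highest at 89.6 CPM.

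The kidneys that were high or low differed in part between the 3 genes, and in the dehydrated group mainly between Aqp4 and the others. Control replicate 3 had the lowest Aqp1 and Aqp4 and the next to lowest Aqp3 of the controls. Dehydrated replicate 1 had the highest Aqp4 of its group but the lowest Aqp1 and Aqp3. Control replicate 5 had the highest Aqp3 and Aqp4 of the controls and the next to highest Aqp1, while control replicate 6 had the highest Aqp1.

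Spread between kidneys of a group was compared with that of genes of like abundance. The SD of log2 CPM within groups was 0.11 for Aqp1, 0.19 for Aqp3 and 0.42 for Aqp4. Among genes with a mean CPM within 2-fold, the median SD was 0.12 around Aqp1 (35 genes), 0.10 around Aqp3 (1649 genes) and 0.10 around Aqp4 (4335 genes). A smaller SD was found for 42.9% of the genes near Aqp1, 91.0% of those near Aqp3 and 99.2% of those near Aqp4. The spread of Aqp3 was that of its controls, with an SD of 0.26 in them and 0.06 in the dehydrated kidneys. Aqp4 had an SD of 0.50 in the controls and 0.31 in the dehydrated kidneys, and the SE of its log2 difference was 0.13 without control replicate 3, against 0.20. Counting error, which covers the sampling of fragments and not library preparation, was at most 0.354% for Aqp1, 1.45% for Aqp3 and 3.34% for Aqp4 as a coefficient of variation. For Aqp4 the coefficient between animals was 28.1% in the controls and 21.5% in the dehydrated group.

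**Figure D3:**
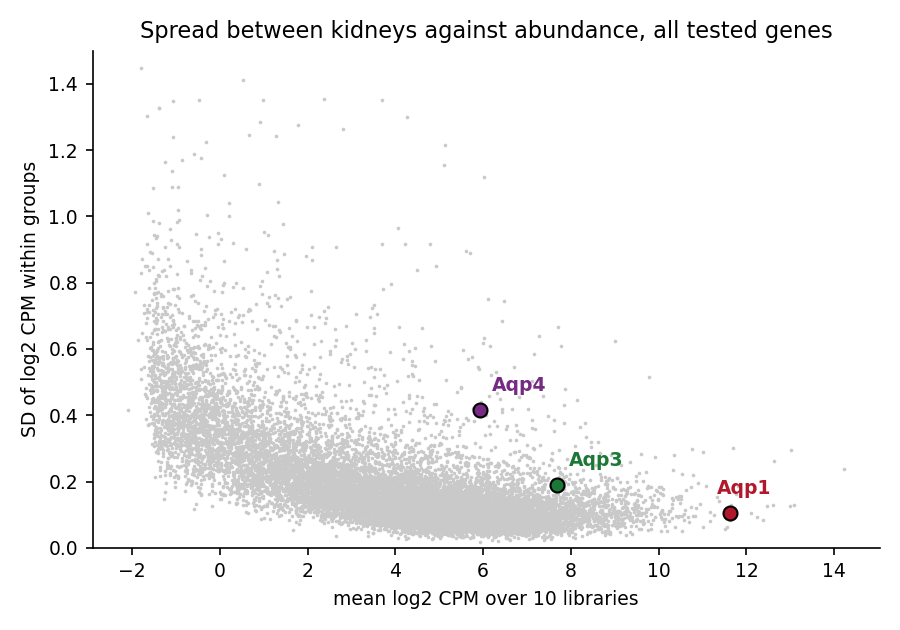
SD of log2 CPM within groups (vertical axis) against mean log2 CPM over 10 libraries (horizontal axis), with 1 grey point per tested gene and the aquaporins in colour. Aqp4 sits above nearly all genes of its abundance at 0.42 and Aqp1 amid them at 0.11; 13 genes lie beyond the axis.

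**Figure D4:**
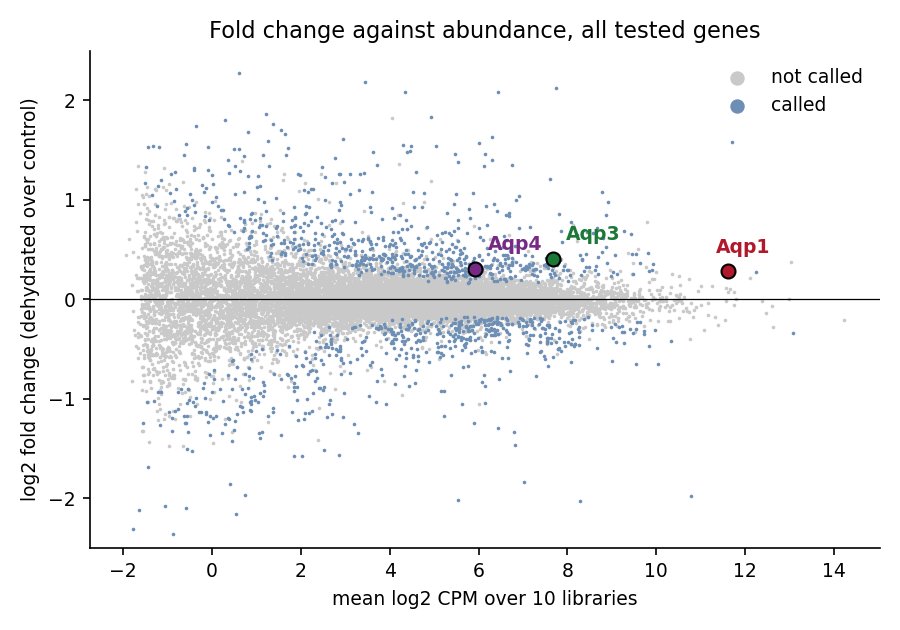
Log2 fold change, dehydrated over control (vertical axis), against mean log2 CPM over 10 libraries (horizontal axis), with called genes in blue and other tested genes in grey. Aqp1 at 0.28 and Aqp3 at 0.41 are called and Aqp4 at 0.30 is not; 15 genes lie beyond the axis.

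Whether the aquaporins responded to different degrees was tested on the ratio of their counts per length within each library, in which the library scaling cancels. Aqp1 was 8.33 to 12.7 times Aqp3 in control kidneys and 8.45 to 9.63 times in dehydrated kidneys. Aqp1 was 76.6 to 166 times Aqp4 in control and 67.0 to 116 times in dehydrated kidneys. Aqp3 was 7.74 to 15.9 times Aqp4 in control and 7.55 to 13.3 times in dehydrated kidneys. All 3 ranges overlapped between the groups.

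The log2 ratio of Aqp3 to Aqp1 differed by 0.15 between dehydrated and control kidneys (95% interval -0.14 to 0.42; two-sided exact permutation p = 0.254, or 0.762 after adjustment over the 3 ratios). For Aqp4 to Aqp1 the difference was 0.06 (-0.45 to 0.66; exact permutation p = 0.818, adjusted 0.818). For Aqp3 to Aqp4 it was 0.09 (-0.48 to 0.57; exact permutation p = 0.698, adjusted 0.818). A difference in response between any pair was thus not detected, although the intervals allow differences larger than the change of either gene. The smallest p this test can give with 5 against 5 is 0.0079.

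Neighbouring genes were counted within 250 kb on each side of an aquaporin. Of the 9 tested genes with an exon in that window around Aqp3, 0 were called by edgeR, limma or DESeq2, and 1 had an unadjusted p below 0.05 in edgeR, against 8.47% called and 3213 of 15047 with such a p over all tested genes. Their log2 fold changes were -0.13 to 0.08. Of the 4 tested genes within 250 kb of Aqp1, 1 was called higher by edgeR (edgeR adjusted p = 0.0494). DESeq2 also called 1 of the 4, which was not matched to that gene, and limma called 0. An unadjusted p below 0.05 in edgeR was found for 2 of these 4, and the log2 fold changes were -0.24 to 0.53. The 2 tested genes near Aqp4 were called by none of these tools, and 0 had an unadjusted p below 0.05 in edgeR, with log2 fold changes of 0.05 and 0.18. With so few genes, these counts do not set the aquaporins apart from their neighbours.

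For each aquaporin the gene with the most similar pattern was found by Pearson's r of log2 CPM over the 10 libraries, among the 12547 other genes that averaged 2 CPM or more. These coefficients describe libraries that share treatment and depth, and each is the highest of many. Closest to Aqp3 was ENSRNOG00000018266 (chromosome 9, 82328173 to 82336806 in Rnor_6.0) with r = 0.969, which rose from 84.0 ± 17.5 to 115 ± 9.21 CPM (SD, n = 5; edgeR adjusted p = 0.0312). Closest to Aqp1 was ENSRNOG00000017731 (chromosome 1, 48719633 to 48825364) with r = 0.963, which rose from 17.9 ± 1.11 to 21.9 ± 1.62 CPM (SD, n = 5; edgeR adjusted p = 0.0191). Both were chosen for their likeness over both groups, so their rise largely follows from the choice and is no separate result. With these partners kept, r without any 1 library stayed between 0.965 and 0.976 for Aqp3 and between 0.946 and 0.986 for Aqp1. The partners were chosen on these same libraries, so the ranges do not test the choice. For Aqp4 the highest r was 0.976, with a gene that was not called, and it was 0.911 without control replicate 3. Of the 12547 genes compared, 41 had an r of at least 0.9 with Aqp1, 25 with Aqp3 and 30 with Aqp4. Such counts are not given for other genes, so these do not set the aquaporins apart.

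**Figure D5:**
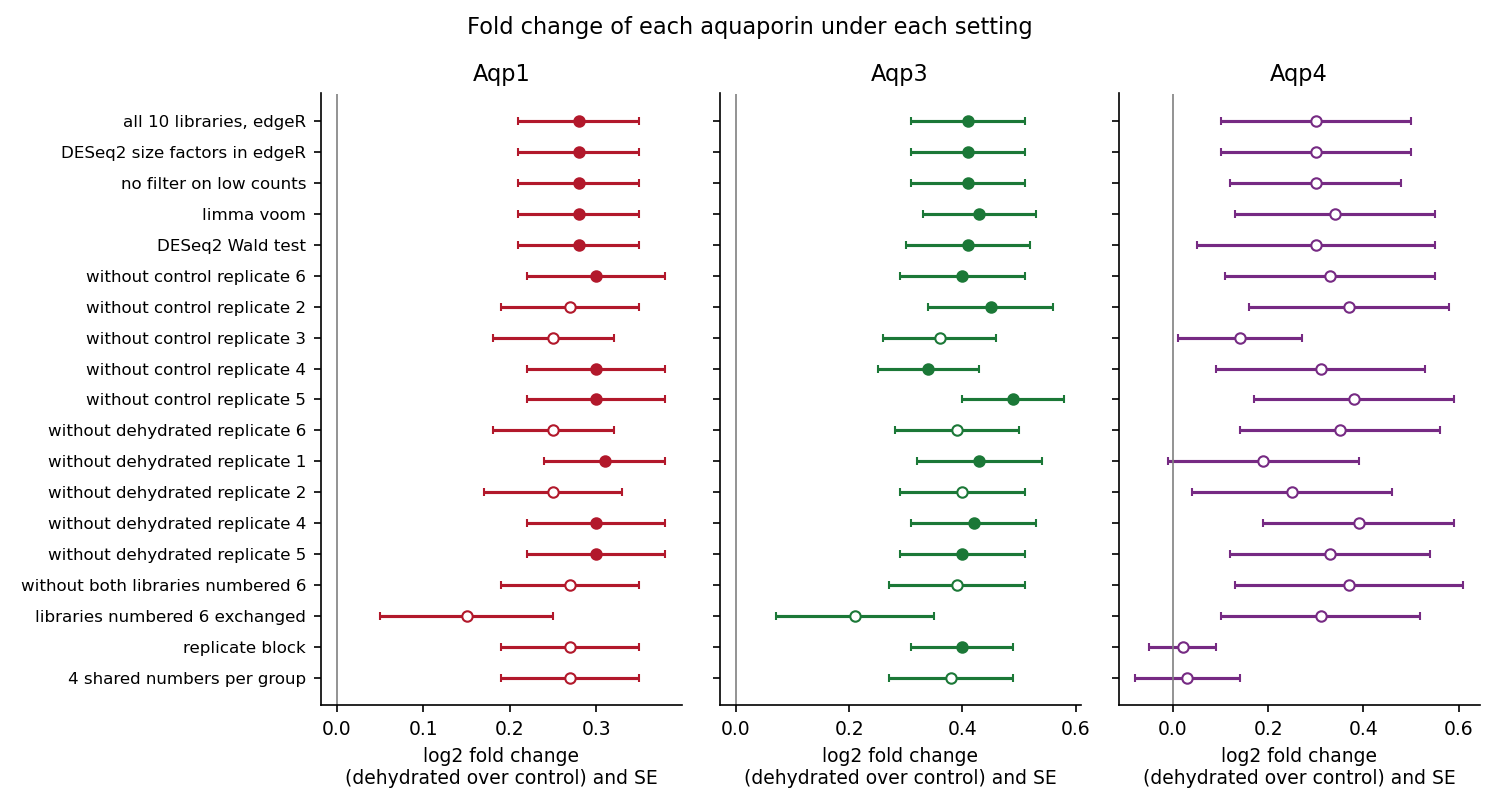
Log2 fold change, dehydrated over control, of each aquaporin with its SE (horizontal axes) under each setting (rows); filled points passed an adjusted p below 0.05 and open points did not. Aqp1 and Aqp3 stay above 0 in every fit shown, with open points in several, and Aqp4 is open throughout and falls to 0.02 or 0.03 in the fits to the 4 shared replicate numbers, which leave out its lowest control and its highest dehydrated kidney.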

How the data were processed

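Polyadenylated RNA of whole kidney was sequenced from 10 rats, 1 library each. Raw counts of fragments for every Ensembl gene were deposited; the authors made them with featureCounts 1.6.2 (paired ends, strand setting 2, Rnor_6.0 annotation of Ensembl release 103) on trimmed reads aligned with Rsubread, per the file headers. The authors also deposited a DESeq2 comparison, per the submitters' processing notes, with log2 fold changes, p-values, a Wald statistic (a score, unused here) and a normalised signal, in which counts are scaled by size factors. Its design formula is not stated.

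Dehydrated and control libraries were compared with edgeR 4.0.16 under R 4.3.3 (quasi-likelihood F-test, TMM scaling, no covariate), after filterByExpr at a count of 10 and a total of 15. DESeq2 1.42.0 and limma 3.58.1 (voom) were alternatives. The SE of a log2 fold change is its size over the square root of F. The 95% intervals of log2 ratios invert the exact permutation test over 252 assignments. The fits were tested on simulated data. Every change planted there was larger than those of the 3 genes, so detection of changes of their size was not tested. Log2 CPM used a prior count of 2. The reference table pairs 0 identifiers with a symbol, so the planned lists (other aquaporins, vasopressin signalling, urine concentration, cell type markers) were not analysed here. The symbols of the 3 genes were supplied with their identifiers. The 3 genes and all lists were chosen with earlier results of these data known. Named genes were these 3 and the tested gene with the highest r to each, of which only called ones are named, by identifier (2 that rose, 0 that fell).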

Additional observations from a re-analysis of the deposited data

How the results depend on the processing

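The direction of Aqp1, Aqp3 and Aqp4 was the same in every fit. Aqp1 and Aqp3 were called, and Aqp4 was not, under 4 other settings on all libraries: limma voom, the Wald test of DESeq2, its size factors in edgeR, and edgeR without the count filter. Leaving out 1 library gave log2 fold changes of 0.25 to 0.31 for Aqp1, 0.34 to 0.49 for Aqp3 and 0.14 to 0.39 for Aqp4, and 879 to 1382 called genes against 1275. Of these 10 fits, 4 lost the call of Aqp1 and 3 that of Aqp3. Without both libraries numbered 6, Aqp1 was 0.27 and Aqp3 0.39, neither called. With these 2 libraries exchanged between the groups, Aqp1 was 0.15 and Aqp3 0.21, neither called, and edgeR called 0 genes, with 1654 at an unadjusted p below 0.05. Where the titles are correct, such an exchange puts 1 kidney of the other treatment into each group. In the fit to the 4 libraries per group with shared numbers, added after the data were seen, Aqp1 was 0.27 (adjusted p = 0.0566) and Aqp3 0.38 (0.0676), neither called, with 2 libraries fewer; Aqp4 was 0.03 (0.926). The 2 libraries left out hold the lowest control and the highest dehydrated value of Aqp4, so that its difference had to shrink. With the replicate number as a block, which leaves out control replicate 3 and dehydrated replicate 1, Aqp1 was 0.27 (edgeR adjusted p = 0.0862, not called), Aqp3 0.40 (0.0361, called) and Aqp4 0.02 (0.938), and 772 genes were called. The deviations of libraries with a shared number from their group means correlated at -0.054 to 0.139 across genes, with the own partner closest for 1 of 4 numbers, so no pairing is shown; what a number stands for is not labelled.

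The log2 ratio of Aqp3 to Aqp1 changed by 0.06 to 0.21 without 1 library. That of Aqp4 to Aqp1 ranged from -0.13 (without control replicate 3) to 0.15, was -0.07 without dehydrated replicate 1, and was -0.25 with the block (exact sign-flip p = 0.125 over 4 pairs, the smallest that test allows). That of Aqp3 to Aqp4 ranged from 0 (without control replicate 4) to 0.26, was -0.01 without both libraries numbered 6 and -0.11 with them exchanged, and was 0.38 with the block (exact sign-flip p = 0.125, again the smallest possible). The block leaves out control replicate 3 and dehydrated replicate 1, and its mean difference is that of the remaining libraries without pairing. The shifts to -0.25 and 0.38 thus come from the libraries left out, not from the pairing. Without the block no ratio had an exact p below 0.05, and with it none could. As TPM, which shares out all fragments per length, the mean levels over 10 kidneys were 1847 for Aqp1, 197 for Aqp3 and 19.7 for Aqp4, against 1091, 116 and 11.6 FPKM, with the order unchanged. Depth limits these values little: counting error, without library preparation, was at most 3.34%.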
